A study of Mus musculus with 9 samples.

Results

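The enzymes described here handle alcohols and their breakdown products, and were followed as transcripts in whole brain hemispheres of 3 mouse strains. They are 8 genes chosen by name for the role of their enzymes, with no threshold on a measured value: the alcohol dehydrogenase genes Adh1, Adh4, Adh5 and Adh7, the aldehyde reductase gene Akr1a1, the catalase gene Cat, the cytochrome P450 gene Cyp2e1, and Acss2, which encodes an acetyl-CoA synthetase. Every probe set annotated to 1 of these genes and to no other gene was taken. That gave 16 of 45037 probe sets and 8 of 18193 named genes. The number of probe sets per gene ran from 1 (Adh1, Adh4 and Cyp2e1) to 4 (Akr1a1). The arrays, of the Affymetrix design Mouse430_2, were hybridised with RNA from B6By.C.132.54, BALB/cJ and C57BL/6ByJ mice, with 3 arrays per strain. All mice were untreated adult males aged 11 ± 1 weeks, and the cerebellum was left out. Each array carried a pool of 10 hemispheres, left or right in alternation, so 30 mice stood behind each strain and 90 behind the study. BALB/cJ and C57BL/6ByJ are established inbred strains, and the name B6By.C.132.54 marks a line with a BALB/c donor contribution on a C57BL/6By background, although the labels call it only an inbred strain. A pool averages over its mice, so the scatter reported here is that between pools.

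Ethanol and other alcohols are oxidised to aldehydes by cytosolic alcohol dehydrogenases, by the microsomal enzyme CYP2E1, and by catalase, which uses hydrogen peroxide in peroxisomes. In liver the alcohol dehydrogenase route dominates, whereas in brain, where the classical ethanol dehydrogenase is scarce, catalase and CYP2E1 have been assigned most of the local acetaldehyde production. Aldehyde dehydrogenases then form acetate, which acetyl-CoA synthetases activate to acetyl-CoA. Of the genes described here, Akr1a1 differs from the group's name in that its enzyme works mainly in the opposite direction, reducing aldehydes to alcohols with NADPH, and Acss2 acts after the oxidation steps.

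Over all probe sets the median of the mean log2 intensities was 3.968, with quartiles of 2.986 and 5.874. Background was not measured here, so signal below or near that median is treated as close to background, and the median serves as the mark for low signal. All 8 neuron, 7 astrocyte, 5 oligodendrocyte, 7 microglia and 6 endothelium and pericyte markers measured lay above it, as did 3 of 6 cerebellum, 4 of 6 choroid plexus and ependyma, 5 of 7 meningeal and 2 of 4 blood markers. B6By.C.132.54 replicate 3 stood somewhat apart, with an interquartile range of 2.73 on the log2 scale against 2.84 to 2.98 on the other arrays. Its mean correlation with its own strain was 0.988. Replicates 1 and 2 of B6By.C.132.54 had 0.989 and 0.991, also below the 0.993 to 0.995 of the BALB/cJ and C57BL/6ByJ arrays.

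Signal was clear for 3 of the 8 genes. By their brightest probe sets, Akr1a1, Acss2 and Adh5 lay above the upper quartile of all probe sets on all arrays, with mean log2 intensities of 10.59 (percentile 99.5), 7.11 (percentile 87.8) and 6.68 (percentile 83.8). Cat was intermediate at 4.77 (percentile 62.0), above its array's median on 8 of 9 arrays. Adh7 read 3.98 (percentile 50.2), at the median itself. Adh1 at 3.46 (percentile 39.4), Cyp2e1 at 3.29 (percentile 34.9) and Adh4 at 2.99, the lower quartile, lay below it, and no array put Cyp2e1 or Adh4 above its median. Of the 16 probe sets, 10 were at or above the median and 6 below. For scale, 5 liver marker genes ran from 3.04 (Cyp3a11) to 5.12 (Apoa1), 3 of them below the median and 2 above it, which spans the readings of Adh7, Adh1, Cyp2e1 and Cat. Ttr, also on the liver list, read 11.98 and is counted here with the choroid plexus markers. Intensities of different probe sets are not on a common scale of abundance, so these positions say only where each lay among all probe sets. In RNA of whole hemispheres, fewer cells of a type and less RNA per cell cannot be told apart.

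**Figure D1:**
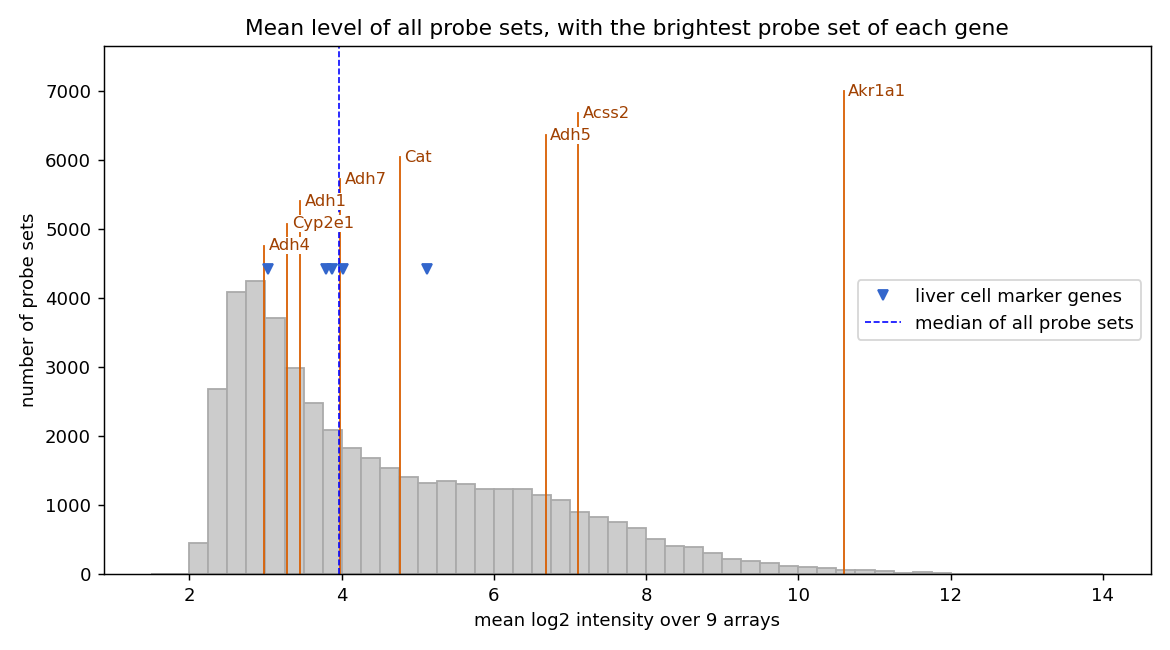
Histogram of the mean log2 intensity over 9 arrays (x axis) of all 45037 probe sets (y axis, number of probe sets), with the brightest probe set of each of the 8 genes as a labelled line, 5 liver cell marker genes as triangles and the median of all probe sets (3.968) as a dashed line. Ttr, also on the liver list, is not drawn. Adh4, Cyp2e1 and Adh1 lie left of the dashed line, Cyp2e1 and Adh1 within the range of the liver genes and Adh4 below their dimmest, Adh7 lies on the line, Cat a little to its right, and Adh5, Acss2 and Akr1a1 in the bright tail.

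The 4 alcohol dehydrogenase genes lie in 1 cluster on chromosome 3. In RefSeq order the cluster runs Adh7, Adh1, Adh6a, Adh6b, the pseudogene Adh6-ps1, Adh4 and Adh5. Only Adh5 of the 4 was clearly measured. The 250 bases before the annotated starts (RefSeq, GRCm38.p6) are shown for Adh5 and its neighbour Adh4, as the brightest and the dimmest of the 4, each read 5′ to 3′ on the gene's strand. Capitals mark matches on either strand to the GC box motif GGGCGG, the CCAAT motif and the TATA motif TATAAA, so that a match on the other strand appears as its reverse complement.

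Adh5, chr3:138442843-138443092 (+ strand): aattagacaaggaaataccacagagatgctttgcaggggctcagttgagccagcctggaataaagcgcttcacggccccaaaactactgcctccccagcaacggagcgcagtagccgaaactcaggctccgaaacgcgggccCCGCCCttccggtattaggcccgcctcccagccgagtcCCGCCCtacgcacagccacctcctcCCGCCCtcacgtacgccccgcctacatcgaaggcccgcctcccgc
Adh4, chr3:138415247-138415496 (+ strand): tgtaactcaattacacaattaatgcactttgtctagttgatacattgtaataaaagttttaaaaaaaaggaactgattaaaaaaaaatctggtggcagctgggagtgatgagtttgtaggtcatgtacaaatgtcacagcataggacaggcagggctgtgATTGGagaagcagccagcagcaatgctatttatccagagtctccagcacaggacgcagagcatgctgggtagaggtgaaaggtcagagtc

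The Adh5 window had 63.6% G and C, 21 CpG dinucleotides and an observed over expected CpG ratio of 0.896, higher than in 88.1% of 32841 mouse promoter windows of that length. It held GGGCGG on the opposite strand 108, 70 and 45 bases before the start. The Adh4 window had 41.6% G and C, 1 CpG, a ratio of 0.0986 and 1 CCAAT match. RefSeq gives Adh5 a further, upstream start whose window had 45.2% G and C and a ratio of 0.16. The Adh7 window (38.0% G and C, ratio 0.112) was also poor in CpG. That of Adh1 had 44.8% G and C and a ratio of 0.418, near the median of all windows (0.374). Of the 9 windows of the 8 genes, 2 (the later Adh5 start and Acss2) had at least 50% G and C with a ratio of at least 0.6, against 31.0% of all windows. GGGCGG stood in 3 of the 9 windows (32.7% of all windows), CCAAT in 5 (33.9%) and TATAAA in 3 (12.4%), and no matches to these motifs overlapped in the 9 windows. These matches describe the sequence only.

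Adh5 encodes the class III enzyme, a glutathione-dependent formaldehyde dehydrogenase that also reduces S-nitrosoglutathione and oxidises ethanol poorly. Its bright probe set (1416185_a_at) read 6.74, 6.56 and 6.44 log2 intensity in B6By.C.132.54 pools, 6.84, 6.69 and 6.61 in BALB/cJ pools and 6.82, 6.76 and 6.67 in C57BL/6ByJ, in replicates 1, 2 and 3. The strains overlapped throughout, with means of 6.58 ± 0.152, 6.71 ± 0.119 and 6.75 ± 0.0745 in B6By.C.132.54, BALB/cJ and C57BL/6ByJ (SD, n = 3 each). The log2 difference of B6By.C.132.54 from C57BL/6ByJ was -0.17 (95% interval -0.40 to 0.06; limma adjusted p = 0.915), and that of BALB/cJ from C57BL/6ByJ was -0.04 (-0.26 to 0.19; limma adjusted p = 0.988). On the fold scale the BALB/cJ interval is 0.833 to 1.14. The gene's other probe set (1443380_at) was dim, with a mean of 3.65. It read 3.74, 3.33 and 4.34 in B6By.C.132.54, and between 3.41 and 3.78 on the 6 arrays of the other strains.

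Adh1 encodes the class I enzyme, the main ethanol dehydrogenase of liver. Its single probe set read 3.41, 3.09 and 4.29 log2 intensity in B6By.C.132.54 pools, 3.39, 3.22 and 3.50 in BALB/cJ pools and the same deposited value, 3.41, on all 3 arrays of C57BL/6ByJ. Only B6By.C.132.54 replicate 3 exceeded its array's median. The difference of B6By.C.132.54 from C57BL/6ByJ was 0.19 on the log2 scale (95% interval -0.33 to 0.71; limma adjusted p = 0.931) and turned to -0.16 without that array. The dim Adh5 probe set was also highest on B6By.C.132.54 replicate 3, the array that stood somewhat apart.

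Adh4, the class II enzyme, is likewise best known from liver. Its values spanned 2.97 to 3.09 in B6By.C.132.54 pools, 2.85 to 3.07 in BALB/cJ pools and 2.87 to 3.04 in C57BL/6ByJ. Adh7, the class IV enzyme of stomach and other epithelia, oxidises retinol as well as ethanol. Its brighter probe set (1450110_at) read 4.36, 3.72 and 3.88 in B6By.C.132.54 pools, 3.98, 4.01 and 3.98 in BALB/cJ pools and 4.08, 3.90 and 3.90 in C57BL/6ByJ. The other Adh7 probe set (1421058_at) ranged from 2.23 to 2.59 over the 9 arrays, at percentile 3.2 of all probe sets. For Adh4 and both Adh7 probe sets the strains overlapped, and the log2 differences of the 3 strain pairs lay between -0.01 and 0.09 (limma adjusted p of 0.922 or higher). Signal this close to background sets no limit on a difference in transcript.

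Akr1a1 (chromosome 4) encodes the NADPH-dependent aldehyde reductase that in mice also makes the gulonate precursor of ascorbate. It was the most strongly detected of the 8 genes, and all 4 of its probe sets lay at percentile 98.0 or higher. The brightest (1430123_a_at) read 10.83, 10.55 and 10.27 log2 intensity in B6By.C.132.54 pools, 10.74, 10.52 and 10.43 in BALB/cJ pools and 10.79, 10.70 and 10.50 in C57BL/6ByJ. Replicate 1 was the highest and replicate 3 the lowest array of each strain, while the strain means (10.55 ± 0.282, 10.56 ± 0.158 and 10.66 ± 0.145 in B6By.C.132.54, BALB/cJ and C57BL/6ByJ; SD, n = 3 each) nearly coincided. The log2 difference was -0.12 for B6By.C.132.54 against C57BL/6ByJ (95% interval -0.43 to 0.20; limma adjusted p = 0.931), -0.02 for B6By.C.132.54 against BALB/cJ (-0.33 to 0.30; limma adjusted p = 0.992) and -0.10 for BALB/cJ against C57BL/6ByJ (-0.42 to 0.22; limma adjusted p = 0.972). Probe set 1451035_a_at followed the brightest one over the arrays (r = 0.95, 9 arrays), with 9.45, 9.33 and 9.02 in B6By.C.132.54 pools, 9.39, 9.33 and 9.19 in BALB/cJ pools and 9.51, 9.43 and 9.27 in C57BL/6ByJ. The remaining 2 have a suffix that marks probes that can match other transcripts. Of these, 1430124_x_at ranged from 9.58 to 9.84 (r = -0.15 with the brightest) and 1435011_x_at from 9.97 to 10.17 (r = 0.69). None of the 4 was called in a strain comparison.

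Cat (chromosome 2) encodes catalase, the peroxisomal haem enzyme that removes hydrogen peroxide and can oxidise ethanol with it. Cyp2e1 (chromosome 7) encodes the ethanol-inducible cytochrome P450 of the endoplasmic reticulum. Their upstream windows are shown because these are the enzymes most often credited with ethanol oxidation in brain. The Cat window combines 62.0% G and C with a CpG ratio of 0.383, 4 CCAAT matches and 1 GGGCGG match. That of Cyp2e1 (48.8% G and C, ratio 0.135) holds TATAAA 31 bases before the start, the position usual for a TATA box, and 2 CCAAT matches.

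Cat, chr2:103485154-103485403 (- strand): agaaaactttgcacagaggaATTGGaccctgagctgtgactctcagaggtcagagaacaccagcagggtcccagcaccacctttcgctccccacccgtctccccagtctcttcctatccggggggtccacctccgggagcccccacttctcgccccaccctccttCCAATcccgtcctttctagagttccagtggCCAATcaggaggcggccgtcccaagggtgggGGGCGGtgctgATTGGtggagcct
Cyp2e1, chr7:140763569-140763818 (+ strand): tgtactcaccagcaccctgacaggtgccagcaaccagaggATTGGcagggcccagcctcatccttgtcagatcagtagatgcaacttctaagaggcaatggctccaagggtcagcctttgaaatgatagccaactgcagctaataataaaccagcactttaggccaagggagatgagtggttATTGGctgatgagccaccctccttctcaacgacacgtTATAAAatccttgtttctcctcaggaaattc

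The brighter Cat probe set (1416429_a_at) had the widest range of the 16 and read 5.44, 4.28 and 3.92 log2 intensity in B6By.C.132.54 pools, 4.86, 4.66 and 4.67 in BALB/cJ pools and 5.66, 4.78 and 4.65 in C57BL/6ByJ. Replicate 1 was the highest array of each strain, and the strains overlapped. The strain means were 4.54 ± 0.797, 4.73 ± 0.111 and 5.03 ± 0.549 in B6By.C.132.54, BALB/cJ and C57BL/6ByJ (SD, n = 3 each). The difference of B6By.C.132.54 from C57BL/6ByJ, -0.48 on the log2 scale, was the largest among the 48 differences of the 16 probe sets, but its 95% interval of -1.25 to 0.29 (folds of 0.419 to 1.22) included 0 (adjusted p = 0.915 by limma, and 0.658 with the replicate number as a block). It was -0.93 without B6By.C.132.54 replicate 1 and -0.17 without either B6By.C.132.54 replicate 3 or C57BL/6ByJ replicate 1. BALB/cJ differed from C57BL/6ByJ by -0.30 (-1.07 to 0.48; limma adjusted p = 0.963), and by 0.02 once C57BL/6ByJ replicate 1 was left out. The dimmer Cat probe set (1416430_at) was close to background, with a mean of 4.055 (percentile 51.4), above its array's median on 4 of 9 arrays. It read 4.34, 3.94 and 3.53 in B6By.C.132.54 pools, 4.68, 3.92 and 3.97 in BALB/cJ pools and 4.20, 4.03 and 3.89 in C57BL/6ByJ. Replicate 1 was again the highest of each strain, and here BALB/cJ had the highest mean, so the 2 probe sets of Cat ordered BALB/cJ and C57BL/6ByJ differently.

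Cyp2e1 read 3.37, 3.28 and 3.27 log2 intensity in B6By.C.132.54 pools, 3.34, 3.35 and 3.09 in BALB/cJ pools and 3.28, 3.21 and 3.38 in C57BL/6ByJ. All 9 values lay below the median of their array, and the strains overlapped.

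Acss2 (chromosome 2) encodes the cytosolic and nuclear acetyl-CoA synthetase, which turns acetate into acetyl-CoA for lipid synthesis and histone acetylation. Its bright probe set (1422479_at) read 7.04, 7.24 and 6.96 log2 intensity in B6By.C.132.54 pools, 6.85, 7.22 and 6.91 in BALB/cJ pools and 7.15, 7.42 and 7.21 in C57BL/6ByJ. Within each replicate number the C57BL/6ByJ array was the highest, replicate 2 was the highest array of each strain, and the strains overlapped. The means were 7.08 ± 0.142, 6.99 ± 0.198 and 7.26 ± 0.139 in B6By.C.132.54, BALB/cJ and C57BL/6ByJ (SD, n = 3 each). BALB/cJ lay 0.27 below C57BL/6ByJ (log2 difference -0.27, SE 0.122, 95% interval -0.54 to 0.00, fold 0.831), with the smallest p-value of the 16 probe sets in any strain comparison. Its adjusted p from limma was 0.664, and the replicate block gave 0.177. Probe set 1422478_a_at, at the median of all probe sets, differed by -0.21 between these strains, and 1446542_at, below that median, by 0.26 in the other direction (limma adjusted p = 0.806 and 0.709). The 2 dim Acss2 probe sets opposed each other over the arrays (r = -0.88, 9 arrays).

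**Figure D2:**
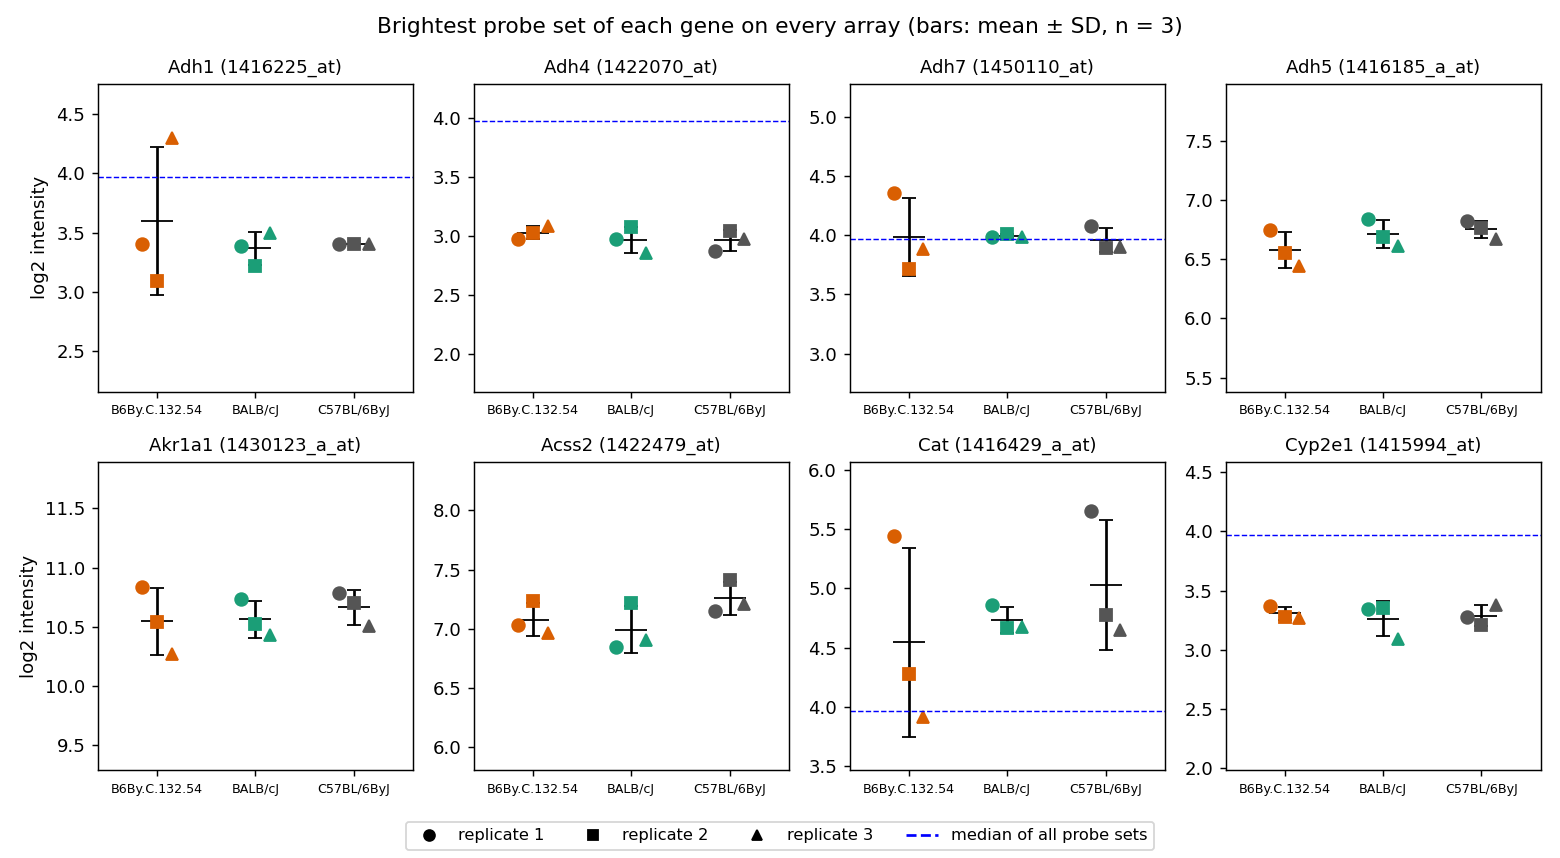
Log2 intensity (y axis, panels of equal span) of the brightest probe set of each of the 8 genes on every array, by strain (x axis), with symbols for the replicate number, horizontal and vertical bars for the mean ± SD (n = 3), and a dashed line at the median of all probe sets (3.968). The 3 strains overlap in each of the 8 panels, and Cat shows the widest scatter, with replicate 1 on top in each strain.

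No probe set of the 8 genes was called in any strain comparison by limma at a Benjamini-Hochberg adjusted p under 0.05. Between B6By.C.132.54 and C57BL/6ByJ 0 of 16 were called, where 0% of all probe sets were. Between B6By.C.132.54 and BALB/cJ 0 of 16 were called against 1.28% of all, and between BALB/cJ and C57BL/6ByJ 0 of 16 against 1.43% of all. A single limma F test for any difference among the strains also called 0 of 16 against 1.28% of all (lowest adjusted p = 0.859). At an unadjusted p under 0.05 the counts were 0 of 16 in all 4 tests, where 3.89%, 7.5%, 7.58% and 6.85% of all probe sets passed in the same order. With the replicate number as a block, 0 of 16 were again called in each test, against 0%, 1.85%, 2.12% and 1.86% of all probe sets. Of the 16, 2, 0, 2 and 1 passed at an unadjusted p under 0.05 with the block, against 7.44%, 11%, 10.9% and 11.2% of all. With background shares this low, 16 probe sets would hold few or no calls at the same rate. The arrays of the strains overlapped for all 16 probe sets in each comparison, where they did not overlap for 6.62%, 9.51% and 12.6% of all probe sets in the same order of comparisons. A further dim probe set, annotated to both Acss2 and Gssos2 and not among the 16, did not overlap between BALB/cJ and C57BL/6ByJ.

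The median log2 difference over the 16 probe sets was -0.02 for B6By.C.132.54 against C57BL/6ByJ (-0.01 over all probe sets), 0.01 for B6By.C.132.54 against BALB/cJ (-0.02) and -0.03 for BALB/cJ against C57BL/6ByJ (0.02). Their median sizes, regardless of sign, were 0.113, 0.0794 and 0.0458, against 0.0854, 0.0863 and 0.0821 over all probe sets, and the median SE was 0.121. The comparisons share arrays and are not independent. The 95% intervals of the brightest Adh5 and Akr1a1 probe sets lay within folds of 0.741 to 1.23 for every strain pair, whereas those of Cat reached 0.419 and 1.5. A p above the threshold does not show that strains have equal levels.

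**Figure D3:**
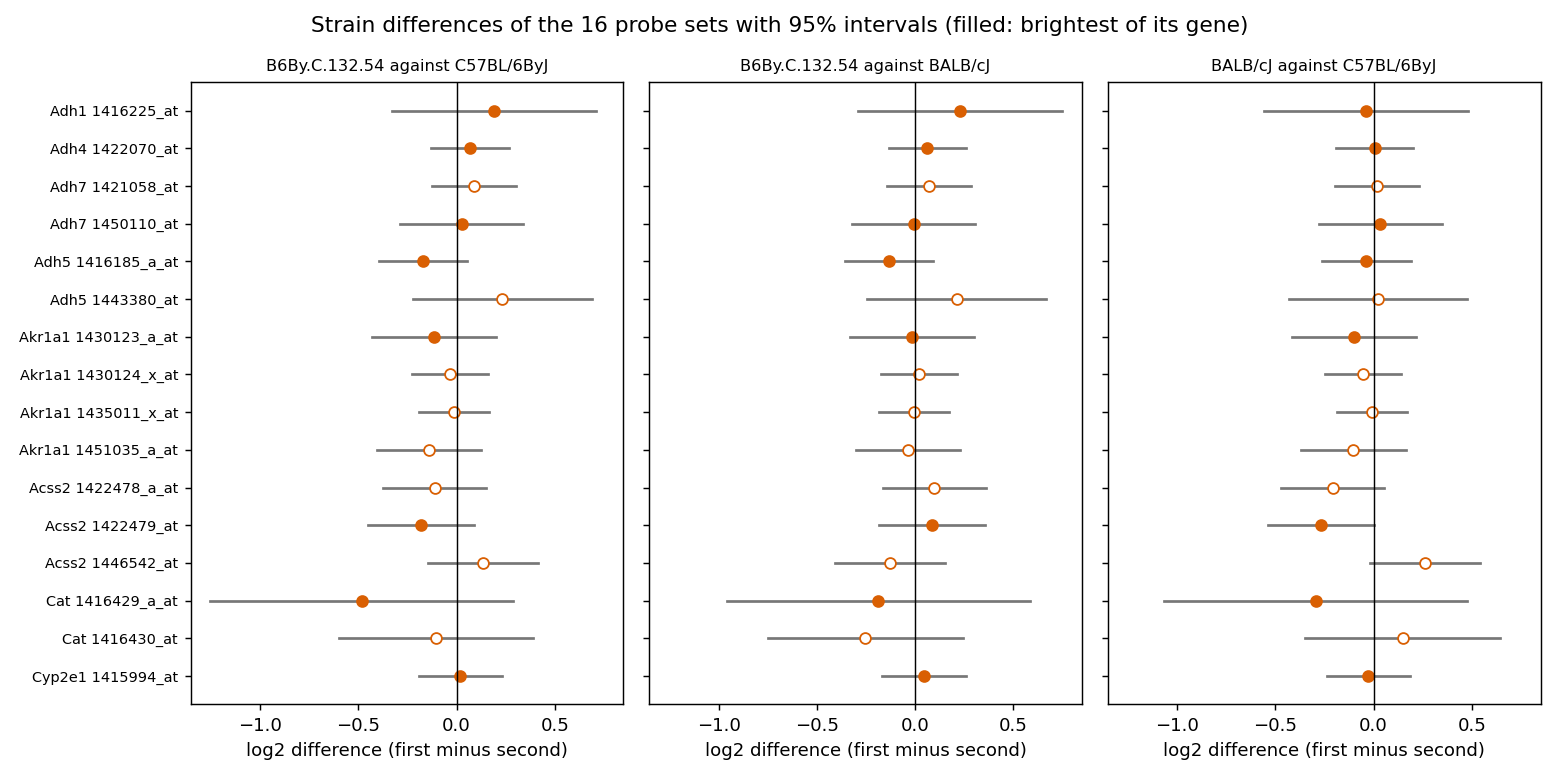
Log2 difference (x axis, first strain minus second) of each of the 16 probe sets (y axis) with its 95% interval from limma, for B6By.C.132.54 against C57BL/6ByJ, B6By.C.132.54 against BALB/cJ and BALB/cJ against C57BL/6ByJ; filled points are the brightest probe set of a gene. Each interval includes 0, and those of Cat 1416429_a_at are the widest.

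Both Cat probe sets were highest in replicate 1 of each strain. The study worked in 3 batches with each strain in every batch, but no label says that replicate numbers mark them. Over all probe sets, arrays with the same number deviated together from their strain means (correlations of 0.147 to 0.542 for 9 pairs, against -0.458 to 0.153 for the 18 pairs with different numbers). A limma F test of the replicate number with strain in the model, chosen after the data were seen, called 0 of 16 probe sets against 2.7% of all (6 of 16 at an unadjusted p under 0.05, against 17.8% of all), with the lowest adjusted p-values for Cat (0.0524 for 1416430_at and 0.0611 for 1416429_a_at) and then Akr1a1 1430123_a_at (0.0901). Replicate 1 minus the mean of replicates 2 and 3, a contrast picked after seeing these values, was 0.83 ± 0.169 (SE) for Cat 1416429_a_at and 0.53 ± 0.106 for 1416430_at in log2 units (adjusted p = 0.0238 and 0.022 by limma). These 2 of 16 were called, against 4.18% of all probe sets. Because the contrast was picked on these values, its p-values describe the pattern and do not test it independently.

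Replicate 1 was the highest array in each strain for 5 of the 16 probe sets (both of Cat, Akr1a1 1430123_a_at and 1451035_a_at, and Adh5 1416185_a_at), against 7.53% of all probe sets. Replicate 3 was the lowest in each strain for 3 of 16 (the same Akr1a1 and Adh5 probe sets), against 6.26%. These orders were picked after the values were seen, and other orders were not counted. Probe sets of the same gene are also not independent, so the counts are a description and no test. The bright probe sets of Adh5 and Cat followed that of Akr1a1 over the arrays (r = 0.88 and 0.87, 9 arrays that share strains and replicate numbers).

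Several technical and tissue measures moved with the replicate number as well. The log2 difference between the 3′ and 5′ control probe sets of Actb was 0.71, 0.75 and 0.78 in replicate 1 of B6By.C.132.54, BALB/cJ and C57BL/6ByJ, against 0.51 to 0.60 in replicates 2 and 3. For Gapdh that difference was -0.50, -0.60 and -0.49 in replicate 1, against -0.41 to -0.27 in the others. Among summed marker intensities, that of 6 choroid plexus and ependyma markers ran from 4566 to 4849 in replicate 1, 3795 to 4195 in replicate 2 and 3692 to 4085 in replicate 3. It was carried by Ttr (replicate 1 minus the others 0.27 on the log2 scale), and 4 of the 6 markers read lower in replicate 1. The sum of 8 neuron markers ran from 8030 to 8922 in replicate 1, 7606 to 8319 in replicate 2 and 6771 to 7838 in replicate 3, with replicate 1 the highest and replicate 3 the lowest array of each strain. The sum of 7 microglia markers was lowest in replicate 1 (1060 to 1118, against 1199 to 1286 in replicate 2 and 1138 to 1234 in replicate 3), and all 7 read lower there. That of 5 oligodendrocyte markers was highest in replicate 2 (9491 to 9634, against 8478 to 8956 in replicate 1 and 7991 to 9435 in replicate 3). The sum of 4 blood markers overlapped (72.2 to 83.2, 76.9 to 86.2 and 76.6 to 87.2). Of the markers listed for these cell types, Snap25 of neurons and Gja1 of astrocytes were called for the replicate number (limma F test, adjusted p = 0.0186 and 0.00141). Snap25 was 0.45 and Gja1 1.03 higher in replicate 1 on the log2 scale, but their lists were mixed, with 5 of 8 neuron markers higher and 3 lower and 2 of 7 astrocyte markers higher and 5 lower. The part of these measures in the Cat, Akr1a1, Adh5 and Acss2 values was not tested.

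**Figure D4:**
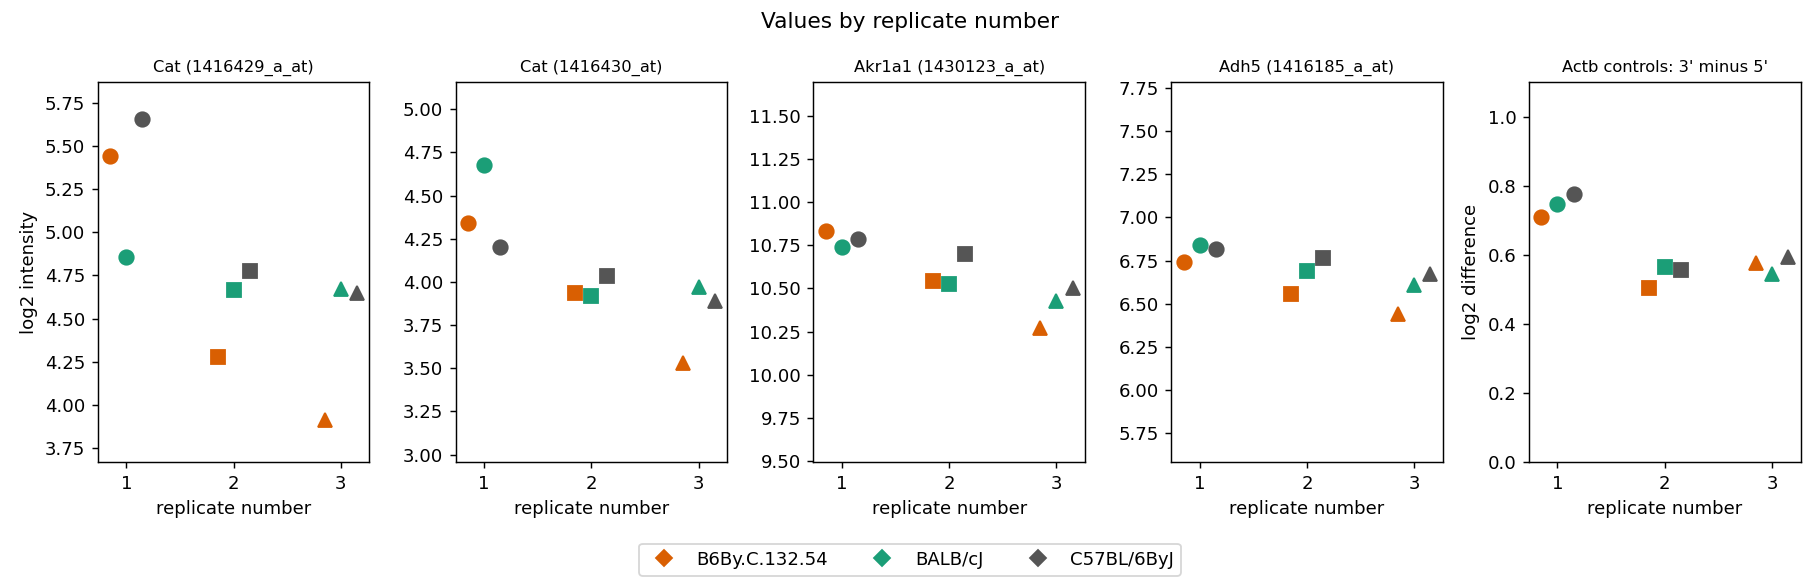
Log2 intensity (y axis of the first 4 panels) of both Cat probe sets and the brightest Akr1a1 and Adh5 probe sets, and the log2 difference between the 3′ and 5′ Actb control probe sets (last panel), by replicate number (x axis) and strain (colour), with 1 point per array. In each strain replicate 1 is the highest, and for Actb it lies at 0.71 to 0.78 while replicates 2 and 3 lie at 0.51 to 0.60.

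Genes of the surrounding pathways were counted by their brightest probe sets, from lists of 117 measured genes. None of the 3 other alcohol dehydrogenase genes was called: Adh6a averaged 2.89 ± 0.118, 2.83 ± 0.0823 and 2.79 ± 0.0193 log2 intensity in B6By.C.132.54, BALB/cJ and C57BL/6ByJ, Adh6b 4.70 ± 0.174, 4.61 ± 0.147 and 4.72 ± 0.191, and Adhfe1, a mitochondrial hydroxyacid-oxoacid transhydrogenase, 5.41 ± 0.0424, 5.32 ± 0.132 and 5.41 ± 0.114 (SD, n = 3 each). By their brightest probe sets, no call fell on the 15 retinol and short-chain dehydrogenases, 6 formaldehyde and nitrosothiol genes, 9 genes of acetate and acetyl-CoA use, 10 of sterol and lipid synthesis, 19 peroxisomal genes or 20 genes of the cytochrome P450 system. Dimmer probe sets of the peroxisomal genes Pex19, an import receptor, and Acaa1a, a thiolase, were called. That of Pex19 was lower in BALB/cJ than in C57BL/6ByJ (log2 difference -0.97; limma adjusted p = 0.0153) and higher in B6By.C.132.54 than in BALB/cJ (1.09; limma adjusted p = 0.00739), and that of Acaa1a was lower in BALB/cJ than in C57BL/6ByJ (-0.64; limma adjusted p = 0.0389). The Acaa1a one was dim, with a mean of 3.77. For the brightest probe sets these differences were -0.32, 0.17 and -0.17, not called. Of 16 aldo-keto and carbonyl reductases, Cbr3 (chromosome 16), a carbonyl reductase, was lower in B6By.C.132.54 than in BALB/cJ, at 6.15 ± 0.218 against 6.67 ± 0.0719, or 1.43-fold (adjusted p = 0.0477 by limma, and 0.0199 with the replicate block), and C57BL/6ByJ lay between them at 6.39 ± 0.00728. The Cbr3 call rests on 1 probe set and was lost without any 1 of the 9 arrays except B6By.C.132.54 replicate 2 (adjusted p of 0.0854 to 0.222). It stood under 5 of 16 alternatives. The block added Slc16a1, a monocarboxylate transporter that carries acetate and lactate, as lower in B6By.C.132.54 than in BALB/cJ (log2 difference -0.47; adjusted p from limma 0.278, with block 0.027). Slc16a1 is singled out after the fact. With the block the calls between B6By.C.132.54 and BALB/cJ were 4 of 117, against 1.75% of all genes, and between BALB/cJ and C57BL/6ByJ 2 of 117, against 1.99%.

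The next step of the route is aldehyde oxidation, and called genes were found in the wider aldehyde dehydrogenase family. Aldh1a1, a cytosolic retinaldehyde dehydrogenase, averaged 8.08 ± 0.235 in B6By.C.132.54 pools, 6.73 ± 0.114 in BALB/cJ pools and 8.14 ± 0.174 in C57BL/6ByJ, and it and Aldh7a1 were the 2 called genes of 19 measured aldehyde dehydrogenases, while the mitochondrial acetaldehyde dehydrogenase gene Aldh2 was not called (7.51 ± 0.143, 7.60 ± 0.231 and 7.58 ± 0.0238 in the same order). Aldh7a1 averaged 7.62 ± 0.211, 6.91 ± 0.135 and 7.81 ± 0.181 in that order. Its call between BALB/cJ and C57BL/6ByJ held under all 16 alternatives, which used its brightest probe set (log2 differences of -1.01 to -0.82). With the median over a gene's probe sets instead, 1 pathway gene was called between these strains in place of 2. Aldh1a1 has 1 probe set, which a median leaves unchanged, and Aldh7a1 has 3. Between B6By.C.132.54 and BALB/cJ the Aldh7a1 call (limma adjusted p = 0.0211) held under 10 of the 16. It was lost, among others, without BALB/cJ replicate 1, 2 or 3 or B6By.C.132.54 replicate 2 (limma adjusted p of 0.0614 to 0.101). In all, limma called 0 of the 117 pathway genes for B6By.C.132.54 against C57BL/6ByJ (0% of all genes), 3 (2.56%) for B6By.C.132.54 against BALB/cJ (1.1% of all genes) and 2 (1.71%) for BALB/cJ against C57BL/6ByJ (1.32% of all genes). At an unadjusted p under 0.05 they were 5, 11 and 10, against 3.99%, 7.59% and 7.78% of all genes. The lists were chosen with earlier results of these data known, so the shares of the 117 genes are a description and no independent test.

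For the 5 genes at or above the median, the genes with the most similar profile over the 9 arrays were looked up among probe sets at or above the median. Cat was most like Rbm25 (r = 0.988) and Clvs1 (r = 0.983), and Akr1a1 most like G3bp2 (r = 0.993) and 1 probe set of Aqp4 (r = 0.991). The brightest Aqp4 probe set was lower in replicate 1 (-0.17 on the log2 scale), where Akr1a1 was highest. Adh5 was most like Dido1 (r = 0.974) and Rnf6 (r = 0.971), Adh7 most like Misp (r = 0.980) and Pip5k1a (r = 0.965), and Acss2 most like Gprc5b (r = 0.964) and Ak5 (r = 0.964). With at least 19405 candidates and 9 arrays that share strains and replicate numbers, such high values are a description of these arrays only.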

How the data were processed

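Total RNA of pooled hemispheres (7 µg per labelling, per the labels' protocols) was hybridised to 9 arrays. The deposited table holds linear signal intensity values, 1 for each probe set on each array. GCOS and RMA are named in the submitters' processing notes, with no version or order, so how the authors treated background and on which scale they normalized are not given in the sources used here. Equal values on at least 2 arrays occurred in 61.5% of the probe sets, and in 8 of the 16 described.

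Of 45101 probe sets, 64 controls were left out of the tests. Intensities were taken to log2 with no offset and no further normalization. Genes came from the platform annotation (34945 probe sets with 1 gene, 932 with several, 9160 with none), with symbols updated through RefSeq (GRCm38.p6) for 34741. A probe set shared by Acss2 and Gssos2 was left out. The brightest probe set, by mean over 9 arrays, stood for a gene in lists. limma 3.58.1 under R 4.3.3 (lmFit, eBayes) fitted 1 mean per strain to all 9 arrays (6 residual and 4.823 prior degrees of freedom), with two-sided tests and Benjamini-Hochberg adjustment over 45037 probe sets. The code was tested on simulated data. The number of arrays limits the precision.

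All pairs of same-numbered arrays had correlated deviations (lowest 0.147), so the numbers were taken to pair the arrays, which is a reading of the data and not of the labels. The 16 alternatives were the replicate block, quantile normalization, log2(intensity + 16), leaving out dim probe sets, an intensity trend and array weights. They also included 6 arrays only, and leaving out each array. The median over a gene's probe sets was a further setting, used for the counts of pathway genes only. All probe sets of the 8 genes were named, list genes where called, and the 2 most similar genes of each gene at or above the median. Members and lists were chosen with earlier results of these data known.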

Additional observations from a re-analysis of the deposited data

How the results depend on the processing

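No probe set of the 8 genes was called in a strain comparison under any of the 16 alternatives; their lowest limma adjusted p was 0.177 (Acss2 1422479_at between BALB/cJ and C57BL/6ByJ, replicate block). Of 750 recomputed differences 61 had the opposite sign; none of these was called, and the largest that turned was Cat 1416429_a_at between BALB/cJ and C57BL/6ByJ. Pathway genes called between B6By.C.132.54 and BALB/cJ (3) fell to 1 with log2(intensity + 16) and with only the 6 arrays compared, and ran from 1 to 3 with 1 array left out (1 without BALB/cJ replicate 1, 2 or 3); between BALB/cJ and C57BL/6ByJ (2) there was 1 with the median over a gene's probe sets. Over all genes, the replicate block changed the calls between B6By.C.132.54 and BALB/cJ to 319 (201 without it) and between BALB/cJ and C57BL/6ByJ to 362 (241), and changed no call of the 8 genes. For the replicate number, 0 of the 16 probe sets were called, but 2 with log2(intensity + 16), 2 without dim probe sets and 3 with an intensity trend, and 0 to 1 with 1 array left out (1 without BALB/cJ replicate 1 or 3). Over all probe sets the replicate number gave 1216 calls, and 292 to 1296 with 1 array left out (292 without B6By.C.132.54 replicate 1, 382 and 471 without replicate 1 of C57BL/6ByJ and BALB/cJ, and 788 without BALB/cJ replicate 2). Calls over all probe sets between BALB/cJ and C57BL/6ByJ (644) were 953 with the replicate block and 918 with array weights, and 410 (without C57BL/6ByJ replicate 2) to 706 with 1 array left out. The causes were not tested. Adh1, Adh4, Cyp2e1 and Adh7 lie at or below the median signal, where background limits any comparison.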

Other observations

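A probe set annotated to both Acss2 and Gssos2, and so counted with neither, read 2.79, 2.97 and 3.10 log2 intensity in B6By.C.132.54 pools, 3.09, 3.02 and 3.09 in BALB/cJ pools and 2.87, 2.94 and 2.97 in C57BL/6ByJ, all below the median of all probe sets (3.968). Its BALB/cJ values all lay above its C57BL/6ByJ values. Between these strains the arrays did not overlap for 12.6% of all probe sets. Acss1, the mitochondrial acetyl-CoA synthetase gene, averaged 5.04 ± 0.151, 5.24 ± 0.214 and 5.33 ± 0.023 in B6By.C.132.54, BALB/cJ and C57BL/6ByJ (SD, n = 3 each), and was not called by limma. It was named after its values were seen.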
